A study of Mus musculus with 63 samples.

Results

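Potassium channels were described here as one set of genes, 93 of the 20183 genes listed, chosen by symbol (Kcn, then the letters of a subfamily and a number). They covered 20 subfamilies. By the function of their products they fell into 30 voltage-gated pore subunits, 10 silent modifiers, 8 pore subunits gated by calcium or sodium, 15 inward rectifiers, 14 two-pore leak channels (K2P) and 16 auxiliary subunits. The study imaged calcium in layer 2/3 of primary visual cortex (V1) in anaesthetised mice during light stimuli, drew single somata into a pipette, and sequenced their RNA with Smart-seq2, which copies full-length transcripts of 1 cell and amplifies them by PCR. Cells that responded to most repeats of the stimulus were called light-sensitive (LS, 46 cells) and cells that hardly responded NS (17 cells), while cells in between were left out by the study. All mice were wild-type C57BL/6 of 70 days, in both groups. The quality filters that the study states, applied here to the deposited values, kept 35 LS and 12 NS cells, which is fewer LS cells than the study itself kept. The labels name no mouse for any cell, so each group counts as 1 sample, no test between groups was possible, and every SD is the spread between cells. A group mean alone cannot tell fewer cells of a type in the group from less RNA per cell. Cells with a read, or values by marker class, are therefore given beside many means.

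Potassium channels let potassium leave or enter the cell along its gradient, and so set the resting potential, end each action potential and limit how fast a neuron fires again. Kv2 (Kcnb) gives the delayed rectifier of pyramidal somata, Kv3 (Kcnc) the fast current of rapidly firing interneurons, Kv4 (Kcnd) the A-type current of dendrites, and Kv7 (Kcnq) the M current that acetylcholine closes. Silent modifiers form no pore of their own and join Kv2 subunits. Calcium- and sodium-activated channels follow spikes, inward rectifiers hold the cell near rest or answer G proteins and ATP, and K2P channels carry leak.

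The pore of all these channels is lined by one short signature, the selectivity filter. A search of the coding sequences for threonine or serine, any residue, glycine, then tyrosine, phenylalanine or leucine, then glycine matched each of the 77 pore and modifier members and 0 of the 16 auxiliary ones. All 14 K2P members held it 2 times, since 1 K2P subunit carries a pair of pore loops. The pattern also matched 2 times in 2 of the 30 voltage-gated members, Kcnh2 and Kcna6, so a match alone need not be the filter. The stretches below, 30 coding bases with the 15 filter bases in capitals, are given for 6 members on which the results turn, 1 or more from each pore class.
Kcnh7: agtctaaccAGTGTAGGATTTGGAaatgtg
Kcnv1: tccatgactACAGTAGGATATGGGgacatt
Kcnma1: acaatgtctACAGTGGGTTATGGGgacgtt
Kcnt1: actttctcaACTGTGGGCTTCGGTgatgtg
Kcnj9: acggagaccACCATCGGCTATGGGcaccgg
Kcnk1: tccctgagcACCATCGGCCTGGGGgactat
The central residue of the filter was tyrosine in Kcnv1, Kcnma1 and Kcnj9. It was phenylalanine in Kcnh7 and Kcnt1, and leucine in the second filter of Kcnk1, the one shown. The sequences are those of the GENCODE M21 transcripts, and each lies in 1 coding exon of GRCm38. On the minus strand they are chr2:62777337-62777366 (Kcnh7, exon 8), chr15:45109283-45109312 (Kcnv1, exon 3), chr14:23528407-23528436 (Kcnma1, exon 8) and chr1:172326178-172326207 (Kcnj9, exon 3). On the plus strand they are chr2:25894358-25894387 (Kcnt1, exon 11) and chr8:126025320-126025349 (Kcnk1, exon 2).

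The libraries of the groups stood apart before any channel was read. The LS cells had 366559 to 2509555 reads on listed genes (median 872255) and the NS cells 149047 to 885726 (median 316670). Of 7 neuron markers the median LS cell held 7 and the median NS cell 2, and Snap25, which every neuron uses for vesicle release, was at 0 in 7 of the 12 NS cells. Odorant, vomeronasal and taste receptor genes, 1031 genes that cortex does not use, showed what genes not in use reach in each library. Their level, as a percent of what an even spread of all reads over exons would give, had a median of 2.53% in LS and 41.5% in NS cells, and 31 LS cells but only 3 NS cells lay under 10%. The part of these differences in the results was not tested, and the main counts are given again for those 34 cells. By Slc17a7 and Neurod2 against Gad1 and Gad2, 30 LS cells were glutamate-marked, 4 GABA-marked and 1 unmarked. Of the NS cells 2 were glutamate-marked, 6 GABA-marked and 4 unmarked.

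LS cells held reads of more potassium channel genes per cell, although NS cells had the larger summed level. Listed genes of any kind above 1 FPKM averaged 5862 in an LS and 3508 in an NS cell. Members at 1 FPKM or more averaged 24.8 and 15, so the member counts differed about as those of all genes did. A read of 2 to 47 members was found in an LS cell (median 31, mean 29.3 ± 10.8 SD, n = 35) and of 6 to 38 members in an NS cell (median 14.5, mean 17 ± 9.80 SD, n = 12). The ranges overlapped, and the NS cells with 38 and 32 members were the glutamate-marked ones. Their receptor levels were 115% and 50.4%, and 20.5% and 11.5% of the receptor genes had a read in them. Each held 2 of the 7 neuron markers. Marker class and receptor level cannot be told apart in these cells. Thinned to 200000 reads, the 35 LS cells averaged 26.6 members and the 8 NS cells that were deep enough 15.4. Among cells with a receptor level under 10% they were 28.2 in 31 LS and 12 in 3 NS cells, as read without thinning. The levels summed over all members ran the other way, 506 FPKM ± 269 (SD, n = 35) in LS and 883 FPKM ± 590 (SD, n = 12) in NS cells. In the 3 NS cells with a low receptor level, however, the sum was 390 FPKM ± 170 (SD), against 512 FPKM ± 278 (SD) in the 31 LS cells.

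**Figure D1:**
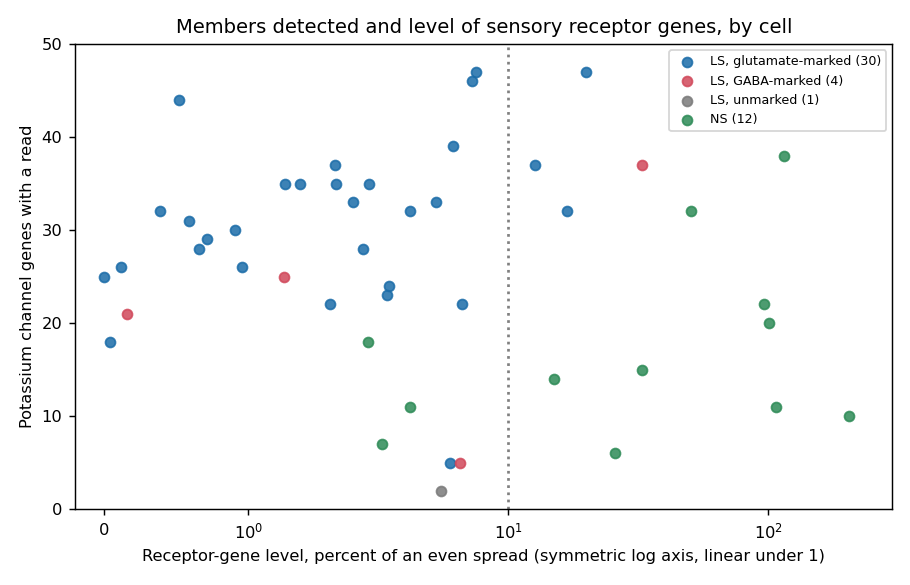
Number of potassium channel genes with a read (vertical axis) against the level of sensory receptor genes as a percent of an even spread (horizontal axis, symmetric log) in the 47 cells. Each point is a cell coloured by group and marker class. The dotted line marks 10%, which 31 LS and 3 NS cells lie under, and no NS cell lies under 2.88%. LS cells hold 2 to 47 members and NS cells 6 to 38. The highest NS cells are the glutamate-marked ones, at receptor levels of 115% and 50.4%.

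The sums were also made up differently. In LS cells reads of a member were spread over many cells: 28 of the 93 members were read in 50% of the 35 cells or more, and the highest cell held a median of 43.9% of a member's summed level. In NS cells 8 members reached 50% of the 12 cells, 27 members were read in 1 cell alone, and the highest cell held a median of 91.7%. The same counts were not taken over all genes. They depend on the number of cells and on depth, both smaller in NS, so they are not shown to be particular to potassium channels. No member was read in every cell of a group, so the ranges of all 93 members overlapped between the groups at 0. The average FPKM of a receptor gene was 0.489 in LS and 6.53 in NS, that of a member 5.44 and 9.49. The mean of 42 members exceeded the 95th percentile of the receptor genes in LS cells (2.24 FPKM). In NS cells 7 members exceeded it (30.997 FPKM), namely Kcnj12, Kcnk4, Kcnmb2, Kcnk12, Kcnt1, Kcnk9 and Kcnc4. A mean in NS cells under that level cannot be told apart from what unused genes show. Some receptor genes lie above it by definition, so a place above it does not by itself set a member apart. The share of all genes above it was not taken in either group. Members were longer than receptor genes (median exon length 3976 and 2404 bases), and a longer gene shows a smaller FPKM per stray read.

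Voltage-gated pore subunits took the largest part of the summed FPKM in LS cells, 44.6%, followed by auxiliary subunits with 17.1%, calcium- and sodium-activated pores with 11.7%, K2P with 9.51%, inward rectifiers with 8.59% and silent modifiers with 8.504%. In NS cells voltage-gated pores took 22.9%, K2P 22.9% and inward rectifiers 20.9%. Of the single subfamilies Kcnip was the highest in LS cells (63.2 FPKM ± 53.6 SD, summed over 4 genes). Kcnh (52.4 ± 49.3 SD, 8 genes) and Kcnk (48.1 ± 51.4 SD, 14 genes) were among those that followed. The SD of each far exceeded the steps between them.

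**Figure D2:**
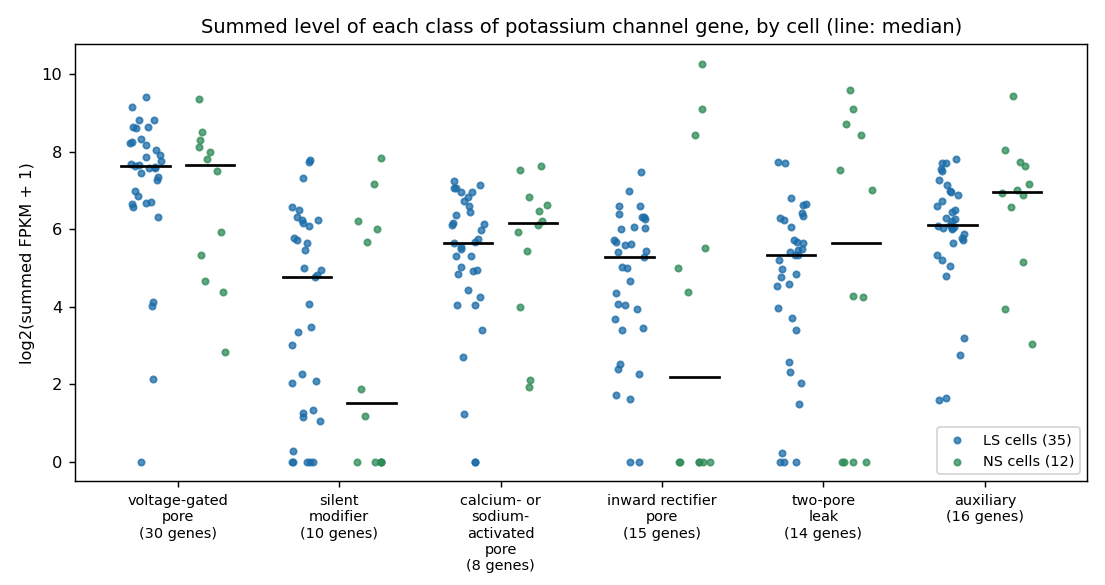
FPKM summed over the genes of each class in a cell, as log2(FPKM + 1), for 35 LS (blue) and 12 NS cells (green). Points are cells and black lines medians. Inward rectifiers and silent modifiers had medians of 37.9 and 25.99 FPKM in LS against 9.85 and 1.96 FPKM in NS cells, while the highest single cells of both K2P and inward rectifiers were NS cells.

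Members with higher means in LS cells included the GIRK subunit gene Kcnj9 (20.7-fold), the Erg gene Kcnh7 (11.9-fold) and the modifier gene Kcnf1 (14.6-fold), whose log2 ratio was -0.85 between the GABA-marked cells of the groups. Kcnv1, Kcnip4 and Kcnj4 were read in LS cells and in none of the NS cells kept. NS cells had higher means of Kcnj12 (326-fold), of Kcnab1 (34.1-fold) and of the BK beta subunits Kcnmb1 to Kcnmb3, each from 6 cells or fewer. By group means, 77 of the 93 members reached 1 FPKM in either group. Of these 30 were at least 2-fold higher in LS cells, 38.96% of them, where 33.8% of all 16760 genes compared were. In NS cells 33 members were at least 2-fold higher, 42.9%, where 38.9% of all genes were. The median log2 ratio of LS to NS was -0.29 over the members and -0.20 over all genes. With the 31 LS and 3 NS cells of low receptor level 62 members were compared. The counts were 44 higher in LS and 7 higher in NS cells (of all genes, 68.6% and 17.1%). Then 37 of the members had no read in the 3 NS cells, a share not taken over all genes. Of the 33 members higher in NS cells, 6 were so in those cells as well, 9 were at least 2-fold higher in LS cells instead and 15 were under 1 FPKM in both groups. Of the 30 higher in LS cells 24 were so there too. By medians over all cells 19 of 21 members compared were higher in LS and 0 in NS cells, where 90.8% and 4.83% of all genes were. Each class is described in turn, with the NS values beside those of LS cells.

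**Figure D3:**
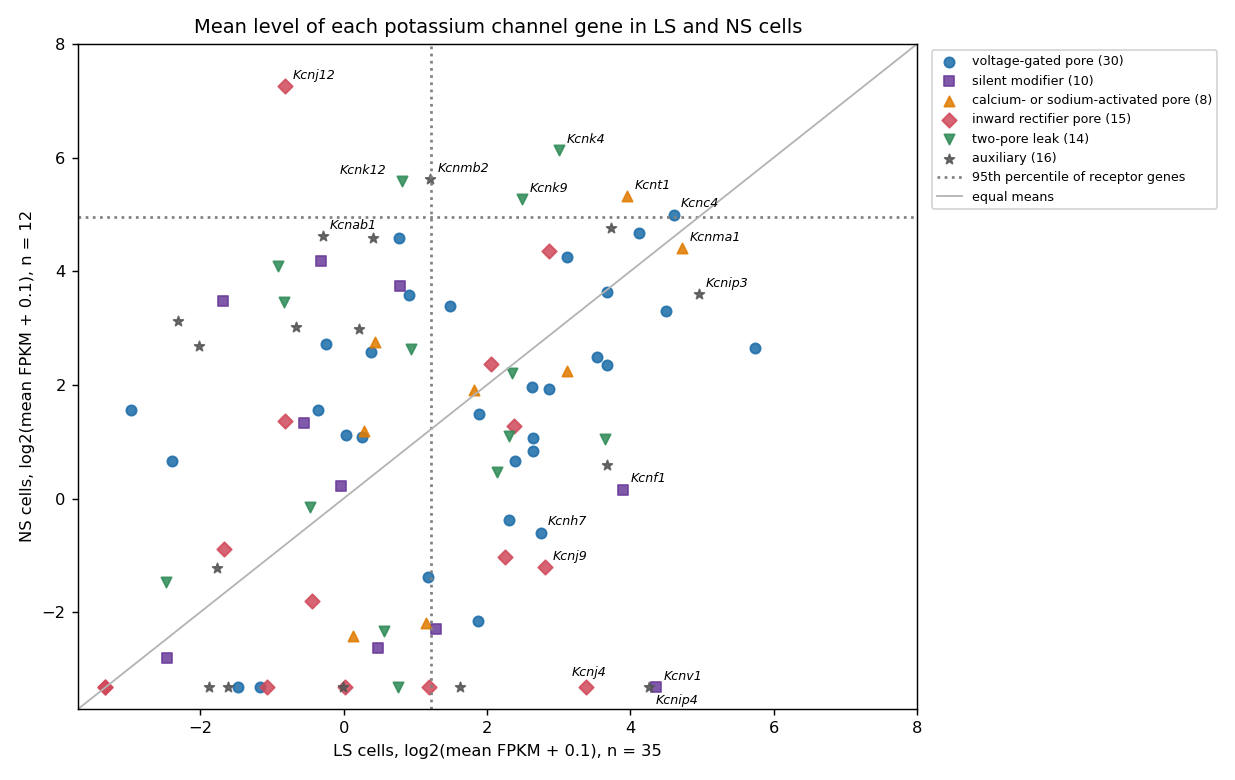
Mean FPKM of each of the 93 members in NS cells (vertical) against LS cells (horizontal), both as log2(mean + 0.1). Symbols give the class, the solid line equal means, and the dotted lines the 95th percentile of the receptor genes in each group (2.24 and 30.997 FPKM). Kcnv1, Kcnip4 and Kcnj4 lie on the floor of the NS axis, and Kcnj12 is the highest member in NS cells.

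Among voltage-gated pores, Kcnb2 (Kv2.2) was read in 28 of 35 LS cells (mean 6.17 FPKM ± 8.64 SD) and in 3 of 12 NS cells (mean 1.995 ± 4.82 SD). Exon bases shared with another gene, mostly on the other strand, were found for 28 of the 93 members, and without strand the reads of such pairs cannot be told apart.

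Of the M-current genes, Kcnq3 was read in 21 LS cells (4.86 FPKM ± 8.503 SD) and 3 NS cells (0.67 ± 1.76 SD), and Kcnq5 in 18 LS cells (3.58 ± 7.87 SD) and 1 NS cell (0.12 ± 0.43 SD). Both were at least 2-fold higher in LS cells. Kcnq1, known mainly from the heart, was higher in NS cells (5.85 FPKM, through 2 cells) than in LS cells (1.20 FPKM).

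The Kv3 genes, which repolarise spikes within a fraction of their width, were led by Kcnc4 in both groups. Kcnc4 ranged from 0 to 104 FPKM in LS cells (median 8.41, mean 24.3 ± 31.6 SD, 19 cells) and from 0 to 365 FPKM in NS cells (median 0, mean 31.9 ± 105 SD, 3 cells). A single NS cell held nearly all of the NS level. Kcnc1 was read in 25 LS cells (8.53 FPKM ± 9.89 SD) and in 7 NS cells (19.03 ± 29.2 SD), 5 of them GABA-marked. Kcnc2 had 11.5 FPKM ± 21.3 (SD) in LS and 5.53 ± 10.5 (SD) in NS cells.

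Of the shaker relatives, which act at axons, Kcna1 and Kcna2 were the most widely read, in 25 and 22 LS cells (6.11 FPKM ± 9.28 SD and 3.62 ± 4.74 SD) and in 4 and 5 NS cells (3.80 ± 11.01 SD and 2.71 ± 7.58 SD). Neither mean differed 2-fold. Kcna3 and Kcna4 were read in 6 and 11 LS cells (6.17 and 2.16 FPKM) and in 1 NS cell each (1.68 and 0.28 FPKM), and Kcna6 in 6 LS cells (0.74 FPKM) and 5 NS cells (6.52 FPKM). Kcna5, Kcna7 and Kcna10 were read in 1 to 3 LS cells at means of 0.03 to 0.35 FPKM, and in NS cells only Kcna10 was, in 1 cell (2.84 FPKM). The A-type genes Kcnd2 and Kcnd3 had 7.18 FPKM ± 10.7 (SD) and 2.70 ± 4.38 (SD) in LS cells. Kcnd1 had 1.10 FPKM in 4 LS cells and 2.03 in 2 NS cells. In NS cells Kcnd2 was read in 1 cell (3.71 ± 12.9 SD) and Kcnd3 in 4 (10.3 ± 26.98 SD).

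The ether-a-go-go genes were led by Kcnh4, with 17.2 FPKM ± 31.2 (SD) in LS cells (22 of 35) and 25.5 ± 47.1 (SD) in NS cells (6 of 12). Kcnh7 (Erg3) was the clearest of its subfamily in spread over cells, with a read in 30 LS cells at 0 to 34.3 FPKM (median 3.77, mean 6.63 ± 8.05 SD) and in 2 NS cells (0.56 ± 1.42 SD), an 11.9-fold higher mean in LS cells. It shares exon bases with Gca on the other strand. Kcnh1 and Kcnh3 had means of 12.6 and 12.6 FPKM in LS cells (27 and 22 cells). Kcnh1 averaged 12.4 FPKM in NS cells through 1 cell at 149 FPKM, and Kcnh3 5.01 FPKM through 3 cells. Kcnh2 (Erg1) was the converse, 1.61 FPKM ± 3.70 (SD) in LS and 23.9 ± 80.5 (SD) in NS cells, where 1 of its 2 cells reached 279.5 FPKM. Kcnh5, Kcnh6 and Kcnh8 stayed under 1 FPKM in LS cells (3 to 6 cells) and were at 1.48 to 2.86 FPKM in NS cells (1 to 3 cells).

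Among the silent modifiers Kcnv1 (Kv8.1, a partner of Kv2) ranged from 0 to 150 FPKM in LS cells (median 1.74, mean 20.4 ± 34.9 SD, 23 of 35 cells, 65.7%, exact Clopper-Pearson 95% interval 47.8 to 80.9%, counting error over these cells of unknown mice only). No read of it was found in any of the 12 NS cells. By counting error alone this allows a share of up to about 25% of such cells with a read and sets no limit on the cells that express it. That share is the rough rule of 3 over the number of cells, not an exact limit. It had 4249 reads over the LS cells (exact Poisson 95% interval 4122 to 4379, counting error only). The limit of a count of 0 was set at 3 reads over the NS group. Against that limit, and with the LS reads taken as counted, its share of all reads was at least 176-fold higher in LS cells. Other shares of reads given as at least a fold were made in the same way. One NS cell that the filters removed did hold Kcnv1, at 37.9 FPKM. Kcnf1 (Kv5.1) was read in 24 LS cells at 0 to 146 FPKM (median 2.89, mean 14.9 ± 29.9 SD) and in 3 NS cells at up to 7.15 FPKM (mean 1.02 ± 2.16 SD), 14.6-fold higher in LS. The other modifiers were rare. Kcns2 and Kcng2, the leading Kcns and Kcng genes over the 47 cells, were higher in NS cells (13.2 and 11.1 FPKM, 3 and 2 cells) than in LS cells (1.63 and 0.21 FPKM, 6 and 2 cells). Within LS cells Kcns3 and Kcng1 led instead. Kcns3, known from fast-spiking interneurons, had 2.34 FPKM in LS and 0.10 in NS cells. Kcng1, Kcng3, Kcng4 and Kcns1 were read in 2 to 5 LS cells at 0.08 to 1.29 FPKM and in 1 or 2 NS cells at 0.04 to 2.40 FPKM. Kcnv2 was read in 2 LS cells and 1 NS cell, the latter at 215 FPKM. In the 3 NS cells of low receptor level no modifier had a read.

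Of 7 calcium- and sodium-activated pores compared, 1 was at least 2-fold higher in LS cells (Kcnt2) and 2 in NS cells (Kcnt1 and Kcnn4), where 33.8% and 38.9% of all genes were. Kcnma1 (BK, opened by calcium and voltage together) ranged from 0 to 148 FPKM in LS cells (median 13.2, mean 26.4 ± 34.3 SD, 31 cells) and from 0 to 71.7 FPKM in NS cells (median 3.61, mean 21.2 ± 29.04 SD, 6 cells). Kcnt1 (Slack, opened by sodium) had 15.4 FPKM ± 20.9 (SD) in LS cells (28 of 35) and 40.1 ± 60.0 (SD) in NS cells (8 of 12, the most NS cells of any member). The most widely read receptor gene was read in 8 NS cells too. The Kcnt1 relative Kcnt2 had 2.11 ± 5.20 (SD) and 0.12 ± 0.41 (SD). Among the SK genes, which shape the afterhyperpolarisation, Kcnn2 led with 8.57 FPKM ± 12.6 (SD) in 24 LS cells and 4.62 ± 8.71 (SD) in 6 NS cells. Kcnn1 had 0.9976 and 0.09 FPKM and Kcnn3 3.43 and 3.66 FPKM. Kcnu1, a sperm channel, averaged 1.11 FPKM over LS and 2.17 over NS cells, under the receptor 95th percentile of each group.

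Inward rectifiers divided by gene. Kcnj4 (Kir2.3, a strong rectifier of the forebrain) was read in 15 LS cells at up to 87.4 FPKM (median 0, mean 10.3 ± 22.2 SD) and in 0 of 12 NS cells, its share of reads at least 33.4-fold higher in LS. The GIRK genes, opened by G proteins, were mostly on the LS side. Kcnj9 (Kir3.3) was read in 28 LS cells (median 2.88, highest 56.1, mean 6.93 ± 10.6 SD) and 1 NS cell (mean 0.33 ± 1.16 SD). Kcnj3 (Kir3.1) was read in 22 LS cells (4.66 ± 8.43 SD) and 1 NS cell (0.39 ± 1.34 SD), and Kcnj6 (Kir3.2) in 18 LS cells (5.12 ± 11.9 SD) and 2 NS cells (2.32 ± 5.63 SD). Kcnj11, the pore of the ATP-sensitive channel, had 7.16 FPKM ± 28.4 (SD) in 5 LS cells and 20.5 ± 71.0 (SD) through 1 NS cell. Kcnj10 (Kir4.1), the channel of astrocytes, was read in 2 LS cells and 1 NS cell, and Kcnj1 and Kcnj8 in 0 of the 47 cells. Kcnj2 (Kir2.1) was read in 11 LS cells at a mean of 0.92 FPKM and in 0 NS cells, and Kcnj13 in 6 LS cells (2.18 FPKM) and 0 NS cells. Kcnj5 had 4.05 and 5.05 FPKM, the latter through 1 cell, and Kcnj14, Kcnj15 and Kcnj16 were read in 1 to 3 LS cells at 0.21 to 0.47 FPKM and in 0 to 2 NS cells at 0 to 2.47 FPKM.

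Kcnj12 (Kir2.2) was the highest member of NS cells. It was read in 5 of 12 NS cells, at 2.18, 24.3, 297, 344 and 1165 FPKM (mean 153 ± 342 SD), and was at 0 in the other 7. In LS cells it was read in 4 of 35, at no more than 7.21 FPKM (mean 0.47 ± 1.58 SD). The mean was 326-fold higher in NS cells. The cell at 344 FPKM was one of the 3 with a low receptor level, and the cell at 1165 FPKM had a receptor level of 14.99%. Both were GABA-marked.

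K2P leak channels had the same mixture. Kcnk1 (TWIK-1) was read in 21 LS cells (median 0.85, highest 97.0, mean 12.4 ± 21.7 SD) and in 1 NS cell at 23.8 FPKM. Kcnk4 (TRAAK), which membrane stretch opens, had 7.97 FPKM ± 23.1 (SD) in 9 LS cells and 70.2 ± 160 (SD) in 4 NS cells. Its exons are shared in part with Catsperz on the same strand, so its reads are uncertain. Kcnk9 (TASK-3) and Kcnk12 (THIK-2) had 5.51 and 1.65 FPKM in LS cells (4 and 6 cells) and 38.5 and 48.1 FPKM in NS cells, 3 cells each. Kcnk13 had 0.46 and 10.9 FPKM. Kcnk2 (TREK-1) and Kcnk3 (TASK-1) had 4.86 and 4.99 FPKM in LS cells (10 and 12 cells) and 2.03 and 4.53 FPKM in NS cells, 2 cells each. Of the other K2P genes Kcnk5 was the most read, in 8 LS cells (4.30 FPKM) and 1 NS cell (1.28 FPKM). Kcnk6, Kcnk7, Kcnk10, Kcnk15, Kcnk16 and Kcnk18 were read in 1 to 6 LS cells at 0.08 to 1.83 FPKM. In NS cells Kcnk16 averaged 16.97 FPKM, with 189 FPKM in 1 of its 2 cells, Kcnk18 averaged 6.09 FPKM through 1 cell, and the other 4 were at 0 to 0.80 FPKM. None of the NS cells behind the means of Kcnk4, Kcnk9 and Kcnk12 had a receptor level under 10%. In the 3 cells that did, the K2P genes summed to 6.11 FPKM ± 10.6 (SD), against 47.9 FPKM ± 54.6 (SD) in the 31 LS cells.

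Of the auxiliary subunits, the KChIPs (Kcnip), calcium sensors that carry Kv4 channels to the membrane, stood on the LS side. Kcnip4 ranged from 0 to 70.6 FPKM in LS cells (median 15.1, mean 19.01 ± 20.4 SD, 28 of 35 cells) and had no read in the 12 NS cells. Its share of reads was at least 138-fold higher in LS cells, and 1 removed NS cell had 5.61 FPKM. Kcnip3 was among the highest members of LS cells, at 0 to 85.8 FPKM (median 26.04, mean 30.97 ± 26.01 SD, 30 cells). It averaged 11.96 FPKM ± 36.5 (SD) in NS cells, where 1 cell at 127 FPKM held 88.8% of the level. Kcnip2 had 12.7 FPKM ± 23.8 (SD) in 13 LS cells and 1.41 ± 4.52 (SD) in 2 NS cells. Kcnip1 went the other way, with 0.53 FPKM ± 2.12 (SD) in 4 LS cells and 8.01 ± 17.1 (SD) in 4 NS cells. The opposite-strand genes 5730480H06Rik and Gm20700 share exon bases with Kcnip4.

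The beta subunits of Kv1 channels (Kcnab) had higher means in NS cells. Kcnab2 was read in 32 LS cells (13.2 FPKM ± 15.003 SD) and 6 NS cells (26.9 ± 50.1 SD). Kcnab1 was read in 5 LS cells, with a highest value of 13.3 FPKM (mean 0.72 ± 2.61 SD), and in 6 NS cells with a highest value of 154 FPKM (mean 24.5 ± 45.1 SD), 34.1-fold higher in NS cells. Kcnab3 had 1.23 FPKM ± 3.72 (SD) and 24.02 ± 41.3 (SD). The BK beta subunits Kcnmb1, Kcnmb2 and Kcnmb3 likewise had higher means in NS cells (6.31, 49.1 and 8.62 FPKM, 3 cells each) than in LS cells (0.15, 2.21 and 0.10 FPKM), and 1 NS cell at 586 FPKM made nearly all of the Kcnmb2 level. In the cells of low receptor level the direction turned for Kcnab2 (13.3 FPKM in 31 LS and 6.94 in 3 NS cells) and for Kcnmb2 (0.99 and 0.24 FPKM), and Kcnmb1 had no read in either group. Kcnab1, Kcnab3 and Kcnmb3 were higher in NS cells there too, each through 1 of the 3 NS cells. The neuronal BK subunit Kcnmb4 was read in 12 LS cells at 0.90 FPKM ± 1.55 (SD) and in 0 of 12 NS cells. Kcne genes were rare in both groups. Kcne1, the highest of them over the 47 cells, was read in 3 LS cells and 1 NS cell, and Kcne4 in 4 LS cells at a mean of 2.97 FPKM and in 0 NS cells. Kcne2, Kcne3 and Kcne1l were read in 1 LS cell each, and of them Kcne1l in 1 NS cell.

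**Figure D4:**
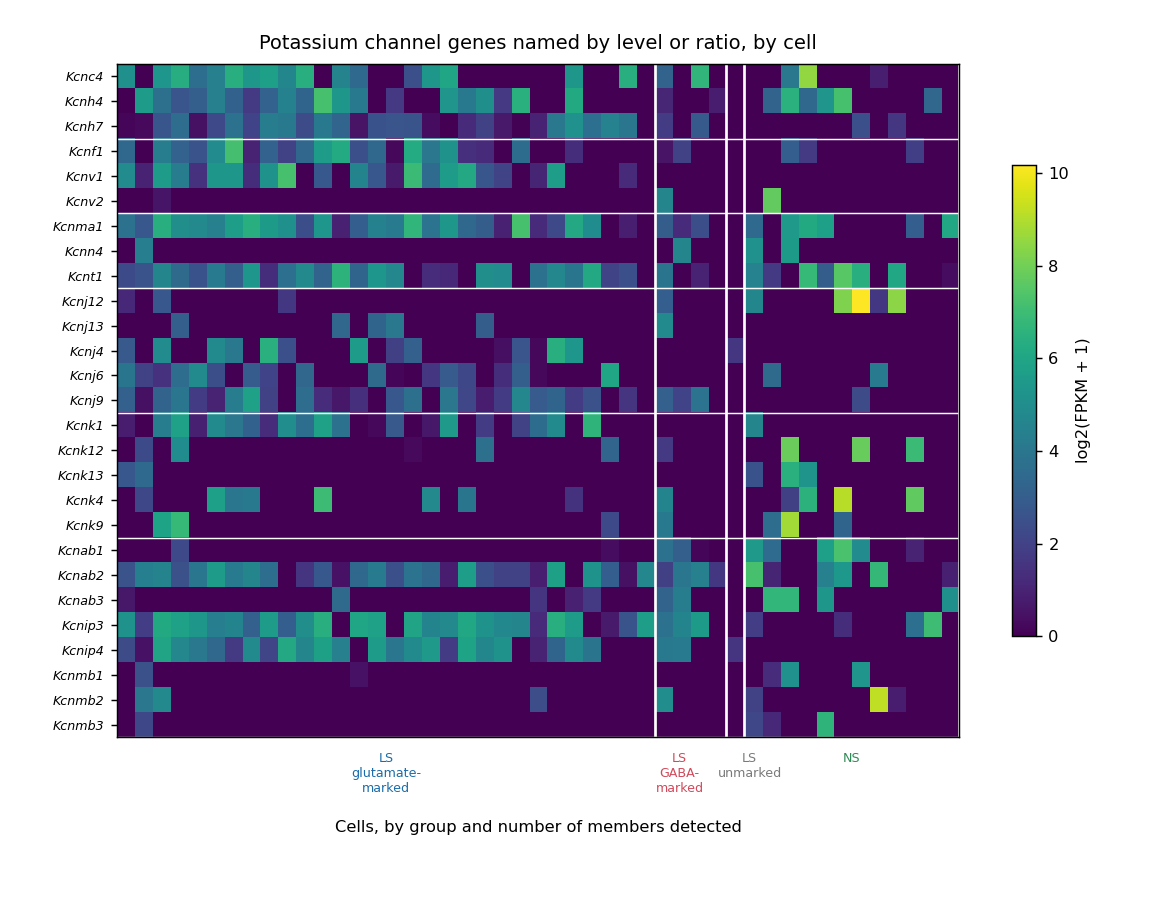
Level by cell, as log2(FPKM + 1), of 27 members that are among the 10 highest of a group or have the largest or smallest ratios between groups or marker classes. Rows are genes by class and columns are the 47 cells, sorted within each group by members detected. Kcnma1, Kcnip3 and Kcnip4 run across most glutamate-marked LS cells, while the bright NS squares stand alone.

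Within the LS cells the glutamate-marked and GABA-marked cells differed in many members, with only 4 GABA-marked cells to compare. They had 31.2 ± 8.99 (SD, n = 30) and 22 ± 13.2 (SD, n = 4) members with a read, and summed levels of 559 FPKM ± 246 (SD) and 235 FPKM ± 168 (SD). Listed genes of any kind above 1 FPKM averaged 6110 and 5061 per cell, and members at 1 FPKM or more 26.4 and 18. The 4 GABA-marked cells held 37, 21, 25 and 5 members, and the cell with 37 had the highest receptor level of any kept LS cell, 32.8%. Of 72 members compared 46 were at least 2-fold higher in the glutamate-marked cells (46.2% of all genes were), 25 of which had no read in the GABA-marked cells. The share of all genes without a read there was not taken, so the 25 are not shown to be particular to potassium channels. In the GABA-marked cells 12 were at least 2-fold higher (23.2% of all genes were). Without the cell of 37 members the counts were 52 and 6 of 68 (57.5% and 15.9% of all genes were).

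Kcnv1 had a median of 5.75 FPKM in the glutamate-marked cells (mean 23.9 ± 36.7 SD, 23 cells) and no read in the 4 GABA-marked cells. By counting error alone, which sets no limit on the difference between classes of cells, its share of reads was at least 178-fold higher. Kcnk1 (mean 14.5 ± 22.9 SD, 21 cells), Kcnj4 (11.9 ± 23.6 SD, 14 cells) and Kcnj6 (5.97 ± 12.6 SD, 18 cells) had none in the GABA-marked cells either, at least 51.3-fold, 33.6-fold and 53.7-fold. With 4 cells a count of 0 allows, by counting error alone and the same rough rule, a share of up to 75% of cells with a read. The rule is too loose for so few cells to be an exact limit. With all 63 cells the direction of Kcnk1 turned, to a difference of -9.97 FPKM. A GABA-marked LS cell that the filters removed held Kcnv1 at 43.6 FPKM and Kcnj6 at 18.9 FPKM. Kcnh4 was 20.04 FPKM ± 32.9 (SD) and 0.46 ± 0.56 (SD), but with LS and NS cells together its log2 ratio was 0.45, under 2-fold. Kcnf1 was 17.2 ± 31.7 (SD) and 0.88 ± 1.46 (SD). Kcnma1 was 30.4 ± 35.5 (SD) in glutamate-marked and 7.10, 4.43, 1.40 and 0 FPKM in GABA-marked cells, and Kcnd2 8.25 ± 11.2 (SD) and 0.97 ± 1.79 (SD).

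**Figure D5:**
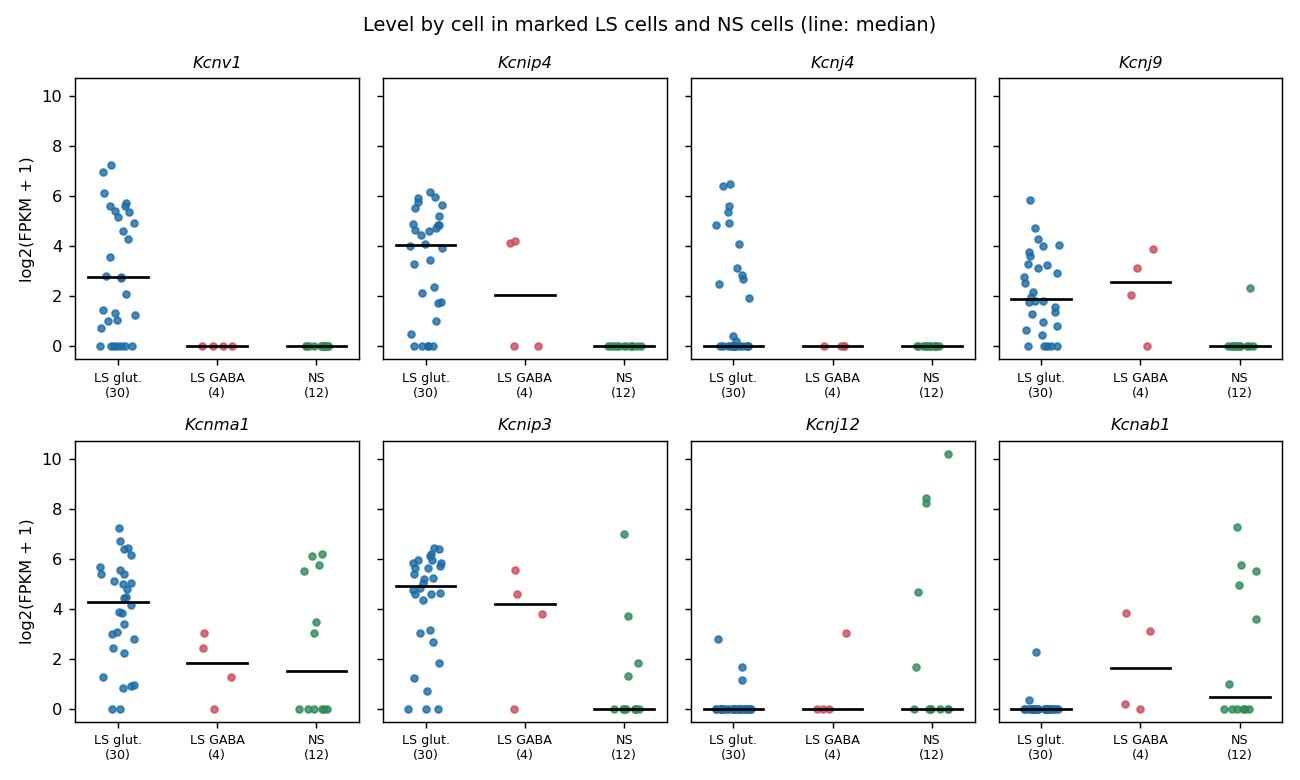
Level of 8 members in single cells, as log2(FPKM + 1), in 30 glutamate-marked LS cells, 4 GABA-marked LS cells and 12 NS cells. Points are cells and black lines medians. Kcnv1 is read in 23 of the glutamate-marked cells and at 0 in the GABA-marked LS cells, and Kcnj12 and Kcnab1 reach their highest values in NS cells.

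Members higher in the GABA-marked LS cells rested on 1 to 3 of the 4 cells. Kcnab1 was 13.3, 0.14, 7.57 and 0 FPKM in them, and was read in 2 of 30 glutamate-marked cells (mean 0.14 ± 0.69 SD). Kcnip1 was 12.1, 0, 3.53 and 0 FPKM against a mean of 0.10 ± 0.40 (SD), and Kcnab3 8.46, 0, 18.2 and 0 FPKM against 0.54 ± 1.95 (SD). Kcnmb2, Kcnv2 and Kcnj13 were read only in the cell of the highest receptor level (30.99, 24.2 and 27.7 FPKM). Kcnn4 was read in 1 of the others, at 24.2 FPKM. The Kv3 genes given above were not 2-fold higher in the 4 GABA-marked LS cells. Pvalb and Sst had no read in these 4 cells and Vip was read in 3, so Pvalb- or Sst-marked cells were not covered. Kcnc1 had 9.10 FPKM in glutamate-marked and 6.45 FPKM in GABA-marked cells, Kcnc2 11.2 and 16.7 FPKM, and Kcnc4 24.6 and 28 FPKM.

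GABA-marked cells of the groups were set beside each other as well, 4 LS and 6 NS cells. There 17 members were at least 2-fold higher in LS and 33 in NS cells of 57 compared, where 42% and 42.5% of all genes were. The receptor level was 0.16 to 32.8% in the former and 2.88 to 107% in the latter. These sets were not matched for other GABA markers either. Vip was read in 3 of the 4 LS cells and in 0 of all 12 NS cells. Sst was read in 0 of the 4 LS cells and in 2 of all 12 NS cells. The part of these differences in the counts was not tested. Kcnc1 was read in 5 of the 6 GABA-marked NS cells (at 2.72 to 86.3 FPKM) and in 3 of the 4 GABA-marked LS cells (at 0.93 to 13.5 FPKM). Kcnj12 averaged 252 and 1.80 FPKM. Kcnip4, with 8.498 FPKM in 2 of the 4 LS cells, had no read in the 6 NS cells.

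Over the 35 LS cells, 28 members were read in at least 50% of cells, and Spearman's rho between 2 of them ran from -0.20 to 0.64 over 378 pairs (median 0.21). The 4 highest pairs were Kcnma1 with Kcnf1 (0.64), Kcnip4 with Kcnd2 (0.60), Kcnj3 with Kcnv1 (0.57) and Kcnv1 with Kcnq3 (0.52). Within the 30 glutamate-marked cells these were 0.57, 0.58, 0.57 and 0.47. Kcnip4 and Kcnd2 encode a KChIP and the Kv4 pore it joins. The points share library quality and marker class, and rho of a member with the cell's reads was -0.28 to 0.24.

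A list of 18 genes outside the rule whose products join or regulate potassium channels, or carry the related HCN current, was read in the same way. Of 14 that reached 1 FPKM in either group, 3 were at least 2-fold higher in LS cells and 8 in NS cells (33.8% and 38.9% of all genes were). The 3 were Dpp6 (7.34 and 2.70 FPKM) and Dpp10 (8.48 and 1.503 FPKM), which join Kv4 channels with the KChIPs, and Lgi1 (5.48 and 1.55 FPKM), which binds at Kv1 axonal complexes. Dpp10 was read in 30 of 35 LS and 2 of 12 NS cells. Hcn4 (2.65 and 32.2 FPKM, 6 LS and 3 NS cells) was among those higher in NS cells.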

How the data were processed

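Single cells were measured by Smart-seq2. The authors trimmed reads with AfterQC, aligned them with STAR 2.5.3a to GRCm38, counted them with featureCounts and deposited FPKM (fragments per kilobase and 1000000 reads) made with scater, without genes that never reached 1 FPKM or do not code for protein. Although the deposited table is named for counts, it holds FPKM of all 63 cells. The filters that the study states, run here on the FPKM table in the same order, left 47 cells, fewer than the study kept. The cells of low cDNA concentration were taken by the names its quality control figure marks. The mitochondrial share, of summed FPKM over the listed mitochondrial genes, removed no cell here but did in the study, and the marker scores removed more cells here than there, for reasons not tested. No per-cell column was left unused, and 4 rows with repeated names were left out. Mice and dates are not given in the labels, so no batch could be examined.

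Read numbers were worked out from the smallest steps of the FPKM values, with exon lengths of GENCODE M21 or lengths solved from the values. Genes whose length was found this way held 99.5% of the values above 0, and 91 of the 93 members were among them. In these genes all values under 200 reads were whole within 1e-05 reads. No count test was run, since each group is 1 sample. Recovery was tested on simulated data of 18903 genes: 199 of 200 planted changes came back within 0.5 of their log2 ratio. The planted genes were well read in NS cells and varied little between cells, unlike most members. The simulation therefore does not bear on how reliable the ratios of the members are. A gene was called higher at a 2-fold ratio of mean FPKM, among genes with a mean of at least 1 FPKM in either group. The members, gene lists and alternatives were chosen with earlier results of these data known. Named genes are the leading gene of each subfamily, the 10 highest of each group, the 6 largest and 6 smallest ratios among members read in at least 25% of cells at 5 FPKM or more, channels of known neuronal roles, and the most correlated pairs, and others are named where a count of 5 or fewer asked for them. Some genes that this rule would name are not reported here, though they count in every total. The scripts ran under Python 3.11.15 (pandas 2.3.3, scipy 1.17.1, numpy 2.4.6) with the seed 11. Intervals and limits cover counting error only, since PCR reads without molecular identifiers are not independent molecules.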

Additional observations from a re-analysis of the deposited data

Results flagged for a closer look

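The stated filters, as applied here, removed 16 of the 63 cells, 10 of them for an astrocyte score above 0, more than the study removed at that step. A larger share of the removed than of the 47 kept cells had a read for 51 of the 93 members. The same count over all genes was not taken. Among the removed cells LS_5, LS_8 and NS_17 held 70, 65 and 67 members, with a read in 21.7%, 23.6% and 10.8% of the receptor genes. The part of these libraries in the values below was not tested. Singled out were the 3 members read in at least 25% of the removed and at most 10% of the kept cells. Kcnj1 and Kcnj8, without a read in the kept cells, were read in 3 and 2 of the removed ones. Kcnj10 (Kir4.1, the astrocyte inward rectifier) averaged 3.47 FPKM ± 6.94 (SD) in the removed cells, with a read in 5 of 16, and 0.52 FPKM ± 3.20 (SD) in the kept cells, with a read in 3 of 47. Of the 5 cells 3 had an astrocyte score above 0, at 3.61, 22.5 and 2.18 FPKM, and 7 cells of such a score had no read of it. Kcnj16 (Kir5.1), which joins Kir4.1, averaged 1.53 FPKM ± 3.38 (SD) in the removed cells (4 of 16) and 0.28 ± 1.63 (SD) in the kept cells (3 of 47). Kcnmb3 averaged 4.81 FPKM ± 15.4 (SD) in the removed cells (4 of 16, of which 1 NS cell held 61.9 FPKM) and 2.28 ± 14.4 (SD) in the kept cells (4 of 47). LS_5, LS_8 and NS_17 were among those 4 removed cells.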

How the results depend on the processing

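Of 45 other settings of the counts and sums (each cell left out aside), 31 stayed within 1.5 times the count or within 1 SD and 14 moved. The count of members higher in LS cells, 30, was 19 by medians over cells and 17 between GABA-marked cells. The count higher in NS cells, 33, was 0 by medians, 7 by the mean of log2(FPKM + 1), 14 by the mean of log2(FPKM + 0.1) and 7 among cells with a receptor level under 10%. The count higher in glutamate-marked LS cells, 46, was 17 by medians and 20 by the mean of log2(FPKM + 1). The count higher in GABA-marked LS cells, 12, was 7 and 5 under the same settings, 22 with all 63 cells, 6 with a receptor level under 10% and 20 with LS and NS cells together. The log2 ratio of the summed level, -0.80, was -2.14 between GABA-marked cells. Among cells with a receptor level under 10% it was 0.39, which turned the direction, though the rule above counts it as staying. The cause was not tested. Leaving out each cell in turn gave 28 to 33, 29 to 35, 42 to 52 and 6 to 13 members, and -0.91 to -0.65 for the sum. The 52 and the 6 both came without the GABA-marked LS cell of the highest receptor level.

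Between GABA-marked cells the log2 ratio of LS to NS turned to -0.85 for Kcnf1 (alone in the Kcnf subfamily). That of the Kcnj subfamily, -2.09, became 1.94 by medians, 1.07 with log2(FPKM + 1) and 2.47 with log2(FPKM + 0.1). That of the Kcnk subfamily, -2.07, became 0.36 with log2(FPKM + 0.1) and 2.97 among cells with a receptor level under 10%, and that of the Kcnt subfamily, -1.20, became 1.15 by medians and 0.29 with log2(FPKM + 0.1). Kcnk1 was 9.97 FPKM lower in glutamate-marked than in GABA-marked LS cells when all 63 cells were used (a difference of -9.97), and Kcnv2 had a log2 ratio of 1.48 with LS and NS cells together. A filter on low values does not enter sums or single genes, and pooled reads were not run for subfamilies. Leaving out 1 cell moved some single ratios strongly, such as Kcnmb3, whose log2 ratio of -6.40 was -2.07 without 1 NS cell. No paired analysis was possible because the cells are numbered within a group only and no test was made. Depth limits what a count of 0 means in NS cells, where a cell had as few as 149047 reads.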
